A study of Danio rerio with 40 samples.

Results

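The small nucleolar RNA snora74 was followed fish by fish in the zebrafish brain. It is 1 gene, ENSDARG00000102120, out of 32520 in the count table, and the files list it under the clone name BX323828.1. It was chosen because the study names it for its diet comparison, so its own values are given as a description. The number of fish with any count was taken by sex and set beside the other 17 genes of the biotype snoRNA. The brains came from adult wild-type (AB) fish of about a year of age, 10 females and 10 males fed for a fortnight on dry feed with 60% gum Arabic (GA), a dietary fibre from the Acacia tree, and 10 females and 10 males on the Control feed without GA. All fish also received live Artemia. The count columns could be assigned to a sex by the table that held them (20 columns for each sex) but to no diet, so 60% GA and Control fish stand together within each sex and no diet comparison was made.

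Small nucleolar RNAs guide the chemical modification and the cleavage of ribosomal RNA in the nucleolus. The H/ACA class, to which SNORA74 and SNORA73 belong, guides the conversion of uridine to pseudouridine by an enzyme complex around dyskerin. The C/D class, with the SNORD genes, guides methylation of the ribose by fibrillarin, and the C/D-type RNAs U3 and U8 take part in the cutting of the ribosomal precursor. Most vertebrate snoRNAs are released from introns and have no poly-A tail, whereas these libraries were made from RNA selected by that tail, so the counts described here are what passed that selection and not the snoRNA content of the brain.

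The libraries held between 10101103 and 17542635 estimated counts in females (median 14207768) and between 9392146 and 19131418 in males (median 13906282). The neuronal gene snap25a, which encodes a protein of synaptic vesicle release, had a median of 4542 CPM in females and 4552 CPM in males, where CPM is the count divided by the library total and multiplied by 1000000. Of the 40 libraries, 37 ran on the same flow cell, and 1 female and 2 males ran on another. Among the libraries that stood apart from the rest was that of the male that holds snora74. It had the smallest total of all and 16434 genes with a count, against 15540 to 22741 over all fish, the second fewest. The comparison of snora74 between the sexes and the number of genes called are given with and without it. Other values over males or over all fish include it.

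Of the 40 fish, 1 had any snora74 count. All 20 females had 0 counts, as did 19 of the 20 males, and the remaining male had 10. The groups thus overlapped at 0, and without that male no count was left in any of the other 39 fish. The 10 counts correspond to 1.06 CPM in a library of 9392146 counts, with an exact Poisson interval of 4.80 to 18.4 counts, or 0.511 to 1.96 CPM (95%). The interval covers counting error only, since reads copied by PCR are not independent molecules. Expressed as shares, 0% of females held the gene, with an exact upper limit of 16.8%, against 5% of males (exact 95% interval 0.127% to 24.9%).

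**Figure D1:**
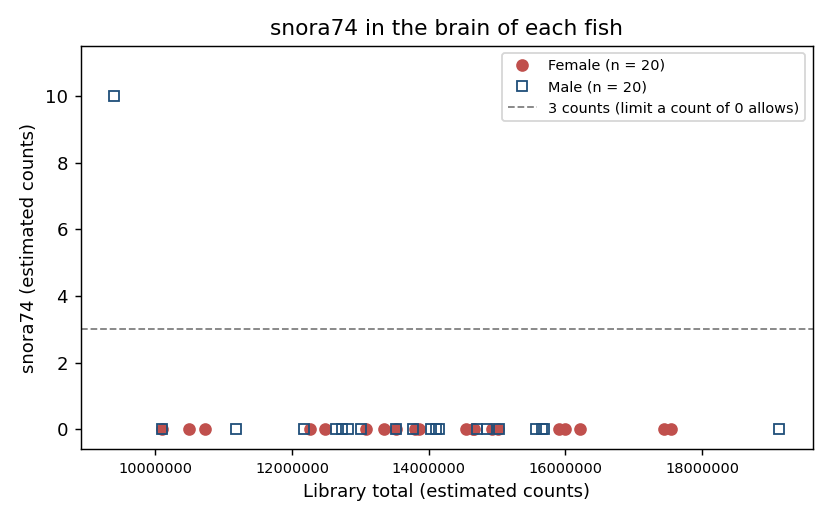
snora74 in estimated counts (vertical axis) against the library total in estimated counts (horizontal axis), 1 point per fish, for 20 females (filled circles) and 20 males (open squares). The only point above 0 is a male with 10 counts at the smallest total, 9392146, and the dashed line marks the 3 counts that a count of 0 still allows.

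A count of 0 does not show that the RNA was missing. It allows up to 3 counts, which lay between 0.157 and 0.297 CPM in the other 39 fish, depending on their depth. The fish with the shallowest library was the one with the count, and none of the fish at or above the median total of 13950594 had any.

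The mean level was 0 CPM in females and 0.053 ± 0.238 CPM in males (SD, n = 20 each), a difference of -0.053 CPM for females minus males. The male mean was itself below the limit that 3 counts set in each library, so no fold between the sexes is given. With a count in 1 of 40 fish, Fisher's exact test and a permutation test of the mean CPM (both two-sided) each give p = 1 whichever fish holds it, so neither bears on the sexes. In the fit across all genes (edgeR quasi-likelihood test, Benjamini-Hochberg adjustment over 27947 genes) snora74 had a log2 fold change of -2.89 for females over males. It did not pass, with an adjusted p of 0.0662. The SE of 0.80 was worked back from the fold and the test statistic, so it does not measure the precision of the fold. That fold depends on the small count the program adds to every library and is no bound. The background of this fit was 13 genes called, or 0.0465% of those tested, and this number moved between 0 and 25 as single fish were left out.

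The unadjusted p of snora74 in the same fit was 0.00128, and it has to be read against other genes held by a single fish. There were 1184 such genes in the fit, of which 542 (45.8%) had an unadjusted p under 0.05, against 9.75% of all genes tested, and none was called. Only 124 single-fish genes had a rounded count of 10 or more, so most of the 1184 had fewer counts than snora74. The other 4 single-fish snoRNA genes had 12 to 31.965 counts. Their unadjusted p in this edgeR fit was 0.000545 to 0.00138, with folds on both sides of 0. A p of this size thus came with a count in 1 library of either sex and does not bear on the sexes. DESeq2, run on the same sexes, marked the count of snora74 as an outlier (Cook's distance 6.08 against a limit of 5.21), replaced it, and gave a log2 fold change of 0 with no adjusted p. Without that male, the gene has no count and no fit.

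Among the 18 genes of the biotype snoRNA, snora74 had the smallest sum, 10 counts, or 0.912% of all 1096 snoRNA counts. The table that gives these 18 holds only genes with a rounded sum of at least 10, so snora74 stands at its lower limit. The other 17 had sums of 12 to 272 counts with a median of 36, and were counted in a median of 8 fish. The biotype fell into a wider and a narrower set. In the wider set, 13 genes had a count in 5 to 24 fish, and in the narrower one 5 genes, snora74 among them, had a count in a single fish (8 genes when at least 5 counts were required). None of the 18 was called between the sexes, where 0.0465% of all genes tested were. Their median log2 fold change was -0.33, against 0.00 for all genes tested. It includes snora74 and the other single-fish genes, whose folds of -4.50 to 3.37 depend on the small count the program adds. Among the 13 genes counted in 5 or more fish, the folds ran from -1.15 to 1.37, on both sides of 0. The median was not taken over these 13 alone, so the value of -0.33 is not read as a lean towards a sex or as the lack of one.

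**Figure D2:**
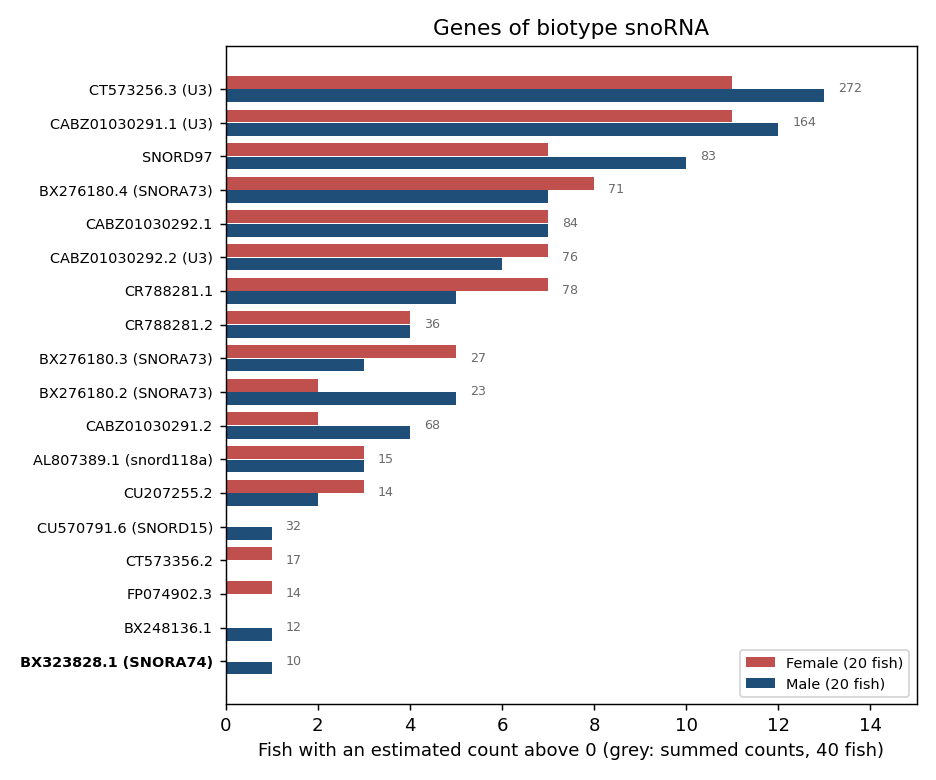
Number of fish with an estimated count above 0 (horizontal axis) for each of the 18 genes of the biotype snoRNA, with the female bar above the male bar, 20 fish each, and the sum of counts over 40 fish in grey. snora74 (bold) is at the bottom with 0 females, 1 male and 10 counts, and CT573256.3, a U3 gene, is at the top with 11 females, 13 males and 272 counts.

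The genes of U3, the C/D-type RNA that pairs with the ribosomal precursor at its first cuts, included the 2 most widely counted. CT573256.3 had counts in 11 females (highest 26) and 13 males (highest 50), and CABZ01030291.1 in 11 females (highest 30) and 12 males (highest 12.0). CABZ01030292.2, a further U3 copy, had counts in 7 females and 6 males, fewer fish than SNORD97. Copies that are alike in sequence can share reads, and several of these genes held fractional counts. Their sequences were not compared here, so the split among copies is uncertain. The count of snora74 was a whole number, but so was the sum of CT573256.3, so this does not show that its reads were unshared.

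SNORD97, a C/D-class gene, followed with 7 females and 10 males, no fish above 10 counts, and a sum of 83. The U8 gene snord118a (AL807389.1), which acts in the maturation of the large ribosomal subunit, had 3 females and 3 males with at most 5 counts. Of the genes without a symbol, CABZ01030292.1 had counts in 7 females and 7 males, CR788281.1 in 7 females and 5 males, CR788281.2 in 4 females and 4 males, CABZ01030291.2 in 2 females and 4 males, and CU207255.2 in 3 females and 2 males. In all 13 of these genes both sexes held counts. A gene counted in a single fish, as snora74 was, can only be held by the sex of that fish.

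The closest relatives by class are the copies of SNORA73, an H/ACA RNA that acts in ribosomal precursor processing. BX276180.4 had counts in 8 females (highest 18) and 7 males (highest 5), BX276180.3 in 5 females (highest 4) and 3 males (highest 9), and BX276180.2 in 2 females (highest 8) and 5 males (highest 5). Each was thus counted in more fish than snora74 but mostly at lower counts, with a median of 2, 2.5 and 3 among fish that had any. The male with snora74 had 0 counts for all 3. A second gene named SNORA74 in the table of gene names, ENSDARG00000082930, had 1 count in total, in another male, and another SNORA73 copy also had 1.

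Of the 5 snoRNA genes held by a single fish, snora74 and CU570791.6, a SNORD15 gene with 31.965 counts, came from the same male. BX248136.1 had 12 counts in a different male, and CT573356.2 and FP074902.3 had 17 and 14 counts in females. In every one of the 5 the whole sum rests on 1 library by definition. None had fewer counts than snora74, which stands at the lower limit of a rounded sum of 10. The male with snora74 held counts for 4 of the 18 genes, which is also the median over fish (range 1 to 8). The other two were the U3 gene CT573256.3 and CABZ01030291.2, each with 15 counts, so that snora74 made up 13.9% of the snoRNA counts of that fish. Among 95 further genes named as snoRNAs but outside the authors' comparison table, 22 had any count in any fish, at most 8 in sum, and none in that male.

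That male had a high level of most of the small, ribosomal and mitochondrial RNA classes measured. Its snoRNA genes together had 7.66 CPM, second among all fish, against 0.0990 to 8.87 CPM (median 1.55) in the other 39. Without snora74 the sum was 6.598 CPM and still second. That remainder includes the 31.965 counts of CU570791.6, also held by this male alone, and the rank without both genes was not taken. Small nuclear RNAs, the RNAs of the spliceosome, had 15.2 CPM, against a median of 1.65 CPM, and also ranked second. Ribosomal RNA genes had 813 CPM against a median of 127 CPM, again second. Mitochondrial ribosomal RNA was the highest of all fish, with 3.87% of counts against 0.557% to 3.57% in the others. Mitochondrial transfer RNAs were highest too, with 10.2 CPM against at most 5.55 CPM elsewhere. Small Cajal body RNAs went the other way, with 1.92 CPM against a median of 4.27 CPM, with only 2 fish lower. The part of these levels in the snora74 count was not tested.

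**Figure D3:**
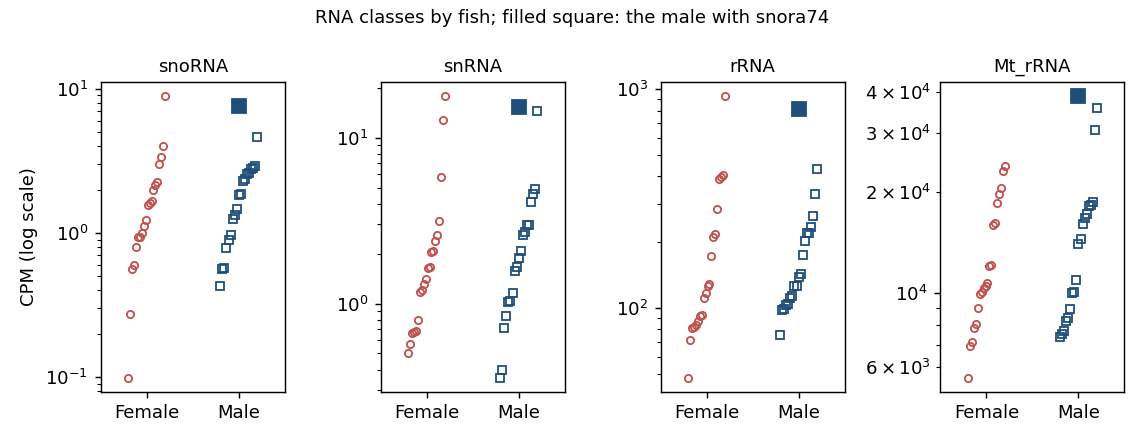
Summed level of 4 RNA classes in CPM on log axes, 1 point per fish, females as open circles left of males as open squares, points spread sideways by rank. The filled square is the male with snora74, which is second of 40 for snoRNA (7.66 CPM), snRNA (15.2 CPM) and rRNA (813 CPM) and highest for Mt_rRNA.

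The blood markers hbaa1 and hbba1, the adult haemoglobin chains, were both highest in this male, with 17355 and 28577 CPM. The highest values in any other fish were 17203 and 18519 CPM, and the medians 615 and 720 CPM. Markers of astroglia were near the low end, with 86.5 CPM of fabp7a, a fatty-acid binding protein of radial glia, against 89.3 to 1062 CPM in the others. Neuronal and oligodendrocyte genes did not move together. Of the neuronal genes, snap25a was the lowest of all fish, with 2604 CPM, elavl3 (58.7 CPM) and snap25b (1203 CPM) were below the medians of the other fish (152 and 1532 CPM), and syt1a, a calcium sensor of synaptic vesicles, was above its median, with 1694 CPM against 1146 CPM. Of the oligodendrocyte genes, mbpa (myelin basic protein) was second highest, with 18342 CPM, and plp1a and plp1b were below their medians. The microglial gene mpeg1.1 was at 0. Of the ovary markers, zp3b stood at 9.58 CPM, the highest among males and rank 3 of all fish, against a median of 3.54 CPM in the others. zp2.1 stood at 0.212 CPM, rank 16, against a median of 0 CPM. The testis marker piwil1 was at 0, and tssk6 was at 0 in all 40 fish. All these ranks are by CPM on library totals. In that male the 2 haemoglobin genes together had 45932 CPM, against a median of 1264 CPM in the others. Such a share lowers the CPM of every other gene of the library, and ranks by another scaling were not taken. In bulk tissue, fewer cells of a type and less RNA per cell cannot be told apart, and the part of these levels in the snora74 count was not tested.

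Low counts were spread unevenly in the same library. A gene with 10 counts was among 147 genes with that rounded count, more than the 88 genes with 4 counts, and the most frequent count between 5 and 60 was 13, held by 214 genes. Over the other 39 fish the median was 489 genes at 4 counts and 212 genes at 13 counts. Their median most frequent count was 5, which is the lower edge of the range searched and no peak. The median number of genes in these fish fell from 642 at 1 count to 439 at 5 counts. Genes with 1 to 9 counts made up 10.0% of the detected genes of that male, with only 3 fish lower, against a median of 19.1% over all fish (range 6.77% to 24.6%). The 10 counts of snora74 lie on the rise towards this local peak. Its part in the snora74 count was not tested.

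**Figure D4:**
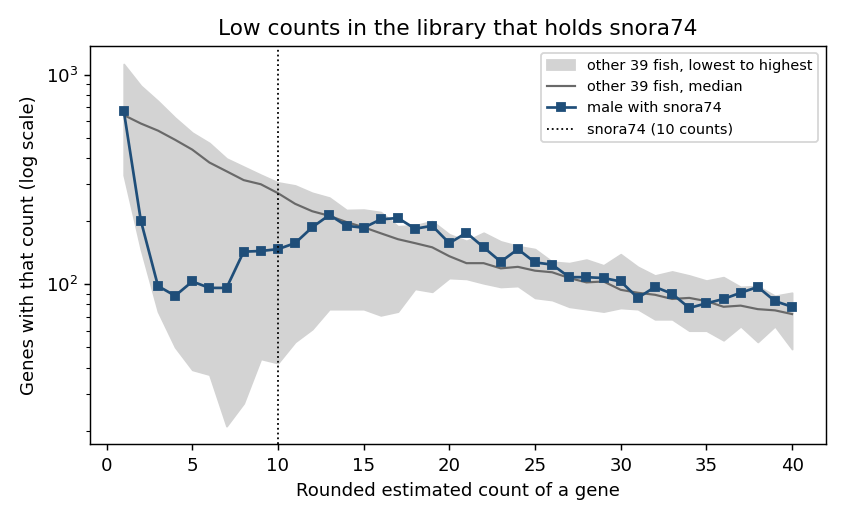
Number of genes (vertical axis, log scale) at each rounded count of 1 to 40 (horizontal axis) in the male with snora74 (squares), with the median (line) and the lowest to highest values (grey band) of the other 39 fish. The male has 88 genes at 4 counts and 214 genes at 13 counts, and the dotted line marks the 10 counts of snora74.

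Most genes with as few counts as snora74 were spread over several fish. Of 138 genes with a rounded sum of 10, 16 (11.6%) were counted in 1 fish, and the median was 3 fish. Of all genes, 1206 were counted in 1 fish only, between 14 and 75 per fish. The male with snora74 had 28 of them, close to the median of 27. Of those with a rounded count of 10 or more, 124 in all, it had 14, with only 2 fish above it, against a median of 1 per fish.

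The genes with the same pattern of fish as snora74 were the other 27 held by this male alone. They tie with a Jaccard index of 1 over the 40 fish, so those named here were picked by their count after the values were seen. After CU570791.6 came the olfactory receptor gene or137-9 with 29 counts and nmur1b, a neuromedin U receptor gene, with 25. The 5S-type rRNA-biotype gene AL627132.1 had 23 counts, and a mitochondrial transfer RNA gene had 21. The microRNA gene dre-mir-26a-3 had 20.

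The authors' comparison table gives each gene a base mean, the authors' mean of normalised counts over all fish, and treats these 124 single-fish genes in 2 ways. For snora74 the base mean is 0.463. The same value, 0.463, is obtained when the 10 counts are divided by the size factor of that male, 0.540, to give 18.5, and averaged with the zeros of the other 39 fish. The listed value thus holds the single count unchanged. Of the 124 genes, 29 have a base mean above 0, all equal to the recomputed mean within 0.1%, and 95 have a base mean of 0 although their fish holds 10 to 95.3 counts (median 17).

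snora74 stands at the edge between them. All 29 genes with a base mean above 0 had 9.58 to 11.3 counts. At a rounded count of 10, 15 genes had a base mean above 0 and 1 had 0. At 11 the numbers were 14 and 7, and at 12 or more 0 and 87. Among the 29, snora74 had the highest base mean, the next being 0.347, and the size factor of its male was the smallest of all fish (others 0.598 to 1.49). Of the 14 genes of that male, it was the only one not listed at 0. CU570791.6, with 31.965 counts in the same library, was listed at 0, as were the other 3 single-fish snoRNA genes. Why the table sets these genes apart was not tested.

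**Figure D5:**
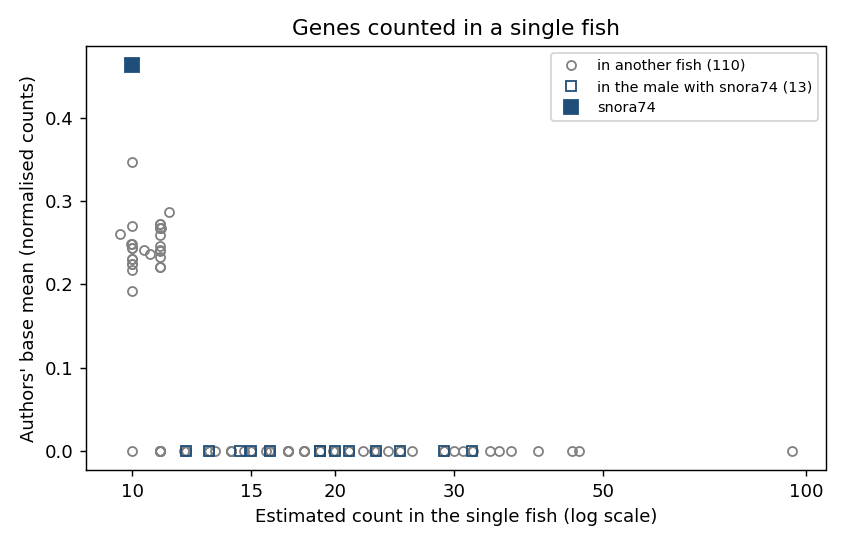
The authors' base mean in normalised counts (vertical axis) against the estimated count in the only fish that holds the gene (horizontal axis, log scale), for 124 genes. snora74 (filled square) has the highest base mean, 0.463, and the 13 other genes of its male (open squares) are all at 0.

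The genes of proteins that bind snoRNAs were measured in both sexes. For the H/ACA class, dkc1 (dyskerin, the pseudouridine synthase) had a median of 17.4 CPM in females (range 8.61 to 25.0) and 18.2 CPM in males (range 13.1 to 29.4), with overlapping ranges. The male with snora74 had the highest dkc1, 29.4 CPM, and the lowest nop10, 3.41 CPM, a small core protein of the same complex. Both ranks are by library totals and were not taken with another scaling. The remaining members lay within the range of the other fish, and all but gar1 were near an end of it. With the highest of the 40 fish as rank 1, nhp2 (8.62 CPM) and shq1 (3.30 CPM) each had rank 39. naf1 (7.35 CPM) had rank 3 and gar1 (14.3 CPM) rank 31. None of the 6 genes was called between the sexes, with a median log2 fold change of 0.06. Over all genes tested only 0.0465% were called, so the lack of a call in a list this short says little about its genes.

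None of the 4 C/D-class proteins was called either, and the same share of 0.0465% over all genes applies to this and the next lists. In the male with snora74 fbl (fibrillarin, the methyltransferase) had 25.1 CPM against a median of 29.0 CPM in the other fish, and nop58 9.26 CPM against 25.7 CPM. Of 7 measured genes for the trimming or decay of RNA ends, none was called. parn, a deadenylase that trims H/ACA RNA ends in human cells, had 108 CPM in that male against a median of 78.4 CPM, and tent4b, a poly-A polymerase, 116 CPM against 65.6 CPM. The other 5 were below their medians there, and ncbp2, a cap-binding protein, was the lowest of all fish with 10.8 CPM. The 9 genes of ribosomal precursor processing were not called, and their summed level was the lowest of all fish in that male, 364 CPM against 449 to 706 CPM in the others. ncl, which encodes nucleolin, had 124 CPM there, against 178 to 321 CPM elsewhere. polr1a went the other way, with 17.1 CPM against a median of 13.1 CPM, as did rrp9, with 7.74 CPM against 5.98 CPM. The rest were below their medians. These ranks too are by library totals.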

How the data were processed

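Per the labels, brain RNA of each fish was extracted and sequenced after poly-A enrichment. According to the study's methods, a directional kit and paired-end reads were used (the deposited sample sheet lists the libraries as unstranded, so antisense reads may be included), nf-core/rnaseq estimated gene counts on Ensembl GRCz11, and DESeq2 compared groups. The settings for outlier counts are not given in the sources used here. The authors deposited these estimated counts (expected counts, not normalised, not whole), in a table for each sex and a table of all fish with identical values. The deposited base mean is the authors' normalised signal over all 40 fish, and the table lists genes with a rounded sum of at least 10. The authors' fold changes and p-values were not used.

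Counts were rounded and fitted with edgeR 4.0.16 (quasi-likelihood, TMM, sex only, all genes with at least 1 count) and called at an adjusted p of 0.05. DESeq2 1.42.0, R 4.3.3, Python 3.11.15, scipy 1.17.1, pandas 2.3.3 and numpy 2.4.6 were also used. The permutation test drew 100000 resamples. CPM used library totals of 9392146 to 19131418. The fit was tested on simulated data. Intervals are 95%, and a count of 0 allows 3 counts. Alternatives were count minimums, depth, filters, scalings, tools and leaving out fish. The members and lists were chosen with earlier results of these data known. Named genes were snora74, snoRNA genes counted in at least 5 fish, SNORA74 copies, genes with the same pattern of fish, and lists of snoRNP, RNA end, ribosomal precursor and cell type genes. Others were chosen after their values were seen. No genome or sequence of the gene was used here, so its position and neighbours are not given. Each fish is 1 library, and a fish's sex rests on the title of its table.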

Additional observations from a re-analysis of the deposited data

How the results depend on the processing

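The single fish with a snora74 count was the same at minimums of 1, 2 or 5 counts, in the table of all fish and on the larger flow cell. That fish had 10 counts and ran on the larger flow cell, and both tables hold identical values. These settings could therefore not change it. At a minimum of 5 counts, 8 of the 18 snoRNA genes were held by a single fish, against 5 otherwise. The difference in fish (females minus males) was -1, moved to 0 among fish at or above the median depth, and ranged from -1 to 0 as each fish was left out, with 0 only without the male that holds the gene. The log2 fold change of snora74 stayed between -2.99 and -2.85 in 39 fits that each lacked 1 fish, and its adjusted p (edgeR) between 0.0662 and 0.0864 over all settings that gave one. Each of these 39 fits left out a fish with 0 counts, so the fold had little room to move and its narrow range is no sign of stability. Its fold was -3.06 on the larger flow cell, -3.00 with DESeq2 size factors in edgeR and -2.83 with only genes of 10 or more counts. DESeq2 gave 0, by replacing the count, and -2.09 (SE 2.95, no p) with the count kept. A filter by expression dropped the gene, as did leaving out its male. The mean CPM difference ranged from -0.056 to 0 with fish left out.

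The 13 genes called became 0 with the expression filter (376 with an unadjusted p under 0.05), 0 on the larger flow cell (2716) and 0 with DESeq2, with outlier counts replaced (621) or kept (538). The number stayed at 13 with DESeq2 size factors in edgeR and was 12 with only genes of 10 or more counts. The calls ranged from 0 to 25 as each of the 40 fish was left out, being over 1.5 times away from 13 in 32 of them, and were 7 without the male with snora74. The cause was not tested. The flow cell, 10-count and kept-outlier settings were chosen after seeing the data. The replicate numbers of the labels count the fish within each sex and pair no female with a male. According to the study, females and males shared tanks, in blocks of a Control and a GA tank. No column name gives the tank or block, so neither entered the fits. The comparison of 60% GA with Control was not run. At this depth a count of 0 allows up to 0.157 to 0.297 CPM in a single fish.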

Other observations

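Besides the male with snora74, whose most frequent gene count between 5 and 60 was 13, 3 other libraries had such a count of 10 or more. They were 2 females, at 19 and 20, and 1 male, at 30, and they held 15540, 16783 and 16940 genes with a count. The 4 libraries were picked by this value after it was seen, and they form no group of the study. Together they held 51 of the 124 genes that a single fish carried with a rounded count of 10 or more. A fish outside these 4 held more such genes than the male with snora74, which had 14. Their snoRNA counts differed: the females had 1 and 116 counts over 1 and 5 of the 18 genes, and the other male 11 counts in 1 gene, against 71.965 counts over 4 genes in the male with snora74. No explanation for these values was tested.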
